A study of Mus musculus with 4 samples.

Results

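Tip endothelial cells, here the cells with at least 5 unique molecular identifiers (UMIs, each standing for 1 captured mRNA molecule) summed over Esm1, Kcne3 and Pgf, were picked out of endothelium sorted from the ears of neonatal mice. They numbered 49 of the 1500 cells kept in library 1 and 92 of the 2250 kept in library 2, or 141 of 3750 in all. Besides the tip sum, each cell had at least 1 UMI of Cdh5, the endothelial cadherin. It also had fewer than 3 UMIs of the venous genes Ackr1 and Selp, fewer than 4 of the arteriolar genes Cxcl12 and Unc5b, and fewer than 2 of Sele. The same held for fewer than 3 of the lymphatic genes Prox1, Mmrn1 and Reln, and fewer than 3 of the cell division genes Mki67 and Top2a. Cells below the tip cut with at least 3 UMIs of Lrat and Col13a1, or at least 3 of Car4, Timp4 and Aqp7, served as capillary cells (117 in library 1 and 165 in library 2). Arteriolar cells, with at least 4 UMIs of Cxcl12 and Unc5b and also below the tip cut, were a further comparison (271 and 296).

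The mice were of the C57BL/6 strain at postnatal day 8, and all cells came from animals in which Cre recombinase under the Cdh5 promoter (Cdh5CreERT2) had switched on a red fluorescent reporter. Live CD31+ reporter-positive cells were sorted, which selects for endothelium, and profiled by 3' single-cell RNA sequencing together with oligonucleotide-tagged antibodies against 5 surface proteins. The series title names heterogeneity of endothelium during vessel growth as its subject. There were 2 biological replicates and no groups of samples that differed in treatment, so every comparison was between classes of cells that shared a library. The sources used here do not give the number of animals pooled for a library.

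In a vascular sprout the leading cell, or tip cell, extends filopodia toward sources of the growth factor VEGF, while the stalk cells behind it form the tube. VEGF acts mainly through VEGFR2, the product of Kdr, and raises the Notch ligand DLL4, by which a tip cell holds its neighbours back from the same behaviour. Esm1 encodes endocan, a secreted proteoglycan known from tip cells of the retina, Kcne3 a regulatory subunit of potassium channels, and Pgf placental growth factor, a VEGF relative that binds VEGFR1. Of the other markers, Apln encodes the peptide apelin, Nos2 inducible nitric oxide synthase and Fscn1 fascin, which bundles actin in filopodia.

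Library 1 held 1745 barcodes and 15989249 UMIs, and library 2 held 2877 barcodes and 26675353 UMIs. The 2 mRNA libraries shared 3 barcodes, none of them of a tip cell. Tip cells were deeper than capillary cells, with medians of 9015 and 11157.5 UMIs against 8489 and 7981, and a cut on a raw UMI sum is met more easily by a deep cell. A cut of 5 per 10000 UMIs gave a mean tip share of 3.54% in place of 3.68%.

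Tip cells made up 3.27% of kept cells in library 1 (95% exact binomial interval 2.43% to 4.30%) and 4.09% in library 2 (3.31% to 4.99%), a mean of 3.68% ± 0.581 (SD, n = 2). All intervals on shares cover counting error only. The cut was met by 102 and 201 kept cells before the other limits applied. The limit on Cxcl12 and Unc5b set aside 33 and 51 of those, the limit on cell division genes 19 and 40, the lymphatic limit 7 and 26, and the Sele limit 0 and 19. The summed count of the 3 genes, which chose the cells and is given as a description, had a median of 9 and 7 UMIs and reached 39 and 50. Cells just inside the cut, with 5 or 6 UMIs (14 and 39 cells), carried Apln at 618 and 427 CPM (UMIs per 1e6 UMIs of those cells), and cells just outside it, with 3 or 4 UMIs (36 and 57 cells), at 523 and 468 CPM. In library 2 Apln was thus no lower just outside the cut than just inside it.

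The 3 genes were rarely found together. A UMI of Esm1 was present in 81.6% and 83.7% of tip cells, of Kcne3 in 44.9% and 56.5%, and of Pgf in 11 of 49 and 23 of 92 cells. All 3 were present in 0 of 49 cells (a count of 0 allows up to 6.12%) and in 7 of 92. Tip cells also overlapped with the capillary definition, since 14 and 31 of them passed the Lrat and Col13a1 cut and 0 and 4 the Car4, Timp4 and Aqp7 cut.

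The label was set beside the 3 markers the rule left out. They were chosen with earlier results of these data known, so their levels are a description and no independent check. Apln had a UMI in 89.8% and 91.3% of tip cells, against 59.8% and 62.4% of capillary cells and 2.06% and 3.23% of lymphatic cells, whose median depth of 9035 and 10655.5 UMIs was close to that of tip cells. With each cell thinned to 4000 UMIs the Apln shares were 81.3% and 72.2% in tip cells and 45.5% and 53.5% in capillary cells, with 1 and 2 tip cells too shallow to thin. Fscn1 was present in 98.0% and 93.5% of tip cells and Nos2 in 31 of 49 and 46 of 92. In lymphatic cells Fscn1 was present in 71.1% and 69.7% and Nos2 in 4.47% and 5.10%. Lymphatic cells are a distant class, and in the test against capillary cells given below Fscn1 rose but Nos2 did not pass. Pan-endothelial markers were all detected, with Pecam1 at 1135 and 1158 CPM. Ptprc, the gene of the leukocyte protein CD45, had no UMI in tip cells of either library (which allows up to 6.07 and 2.59 CPM), and the 6 immune markers summed to 24.3 and 14.7 CPM. The lymphatic chemokine gene Ccl21a had a UMI in 4.08% and 15.2% of tip cells, against 81.8% and 96.9% of lymphatic cells. Haemoglobin and other erythroid markers summed to 130 CPM in library 1 and to 7020 CPM in library 2, where 1 cell held 52.8% of them, against 81.8 and 930 CPM in capillary cells. The haemoglobin gene Hbb-bt rose against capillary cells (log2 3.99 ± 0.93 SE, edgeR adjusted p = 0.0377), at 7.86 and 999 CPM in tip cells and 10.5 and 45.7 CPM in capillary cells, and was higher in library 2 only. Pericyte markers summed to 162 and 141 CPM in tip cells and 214 and 49.7 CPM in capillary cells.

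The stretches of 200 bases just upstream of the transcription starts of Esm1, Kcne3, Pgf and Apln are shown because the first 3 genes chose the cells and Apln had the largest rise among the markers left out of the rule. Sequences are from RefSeq on GRCm38.p6, written 5′ to 3′ on the strand of the gene. Capitals mark ACGTG, 1 form of the core that hypoxia-inducible factors are known to bind. The other form, GCGTG, was neither marked nor counted, and it occurs in the Esm1 window and, on the opposite strand, in the Pgf window.
Esm1, chr13:113209459-113209658, plus strand: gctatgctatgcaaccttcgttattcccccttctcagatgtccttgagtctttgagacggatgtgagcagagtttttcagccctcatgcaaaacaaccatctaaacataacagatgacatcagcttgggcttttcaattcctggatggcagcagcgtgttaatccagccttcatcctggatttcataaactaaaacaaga
Kcne3, chr7:100176470-100176669, plus strand: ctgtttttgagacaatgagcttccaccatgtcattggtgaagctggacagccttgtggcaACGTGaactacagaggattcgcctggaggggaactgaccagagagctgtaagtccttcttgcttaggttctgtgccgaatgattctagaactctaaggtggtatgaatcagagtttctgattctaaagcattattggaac
Pgf, chr12:85177314-85177513, minus strand: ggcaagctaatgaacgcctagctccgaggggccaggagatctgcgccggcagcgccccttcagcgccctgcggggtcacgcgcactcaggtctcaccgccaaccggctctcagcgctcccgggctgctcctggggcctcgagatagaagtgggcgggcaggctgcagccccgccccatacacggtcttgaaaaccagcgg
Apln, chrX:48034854-48035053, minus strand: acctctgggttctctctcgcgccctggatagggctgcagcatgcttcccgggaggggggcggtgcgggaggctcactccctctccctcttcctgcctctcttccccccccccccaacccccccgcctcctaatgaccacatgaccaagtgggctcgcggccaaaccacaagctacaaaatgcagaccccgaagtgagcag
Counted on both strands, ACGTG occurred 1 time upstream of this Kcne3 start and not in the windows of Esm1, Pgf and Apln, and 4579 of 32817 promoter windows of that length hold it. GGAA, the core bound by ETS factors, occurred 2 times upstream of Esm1, 3 times upstream of Kcne3, 3 times upstream of Apln and 0 times upstream of Pgf, where 89.0% of windows hold it. Kcne3 and Pgf each had another RefSeq start, not printed, whose windows held 0 and 0 ACGTG and 4 and 0 GGAA. A match is a description of the letters and not of binding. Esm1 lies on chromosome 13 from 113209659 to 113218098 and Kcne3 on chromosome 7 from 100176502 to 100184869 (GENCODE vM21, GRCm38). Pgf lies on chromosome 12 from 85166635 to 85177790 and Apln on chromosome X from 48025146 to 48034853, and all are protein-coding genes. The RefSeq starts of Kcne3 and Pgf differ from these GENCODE ends. The Kcne3 window therefore runs past the GENCODE start, and the Pgf window lies within the GENCODE gene.

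Whether each marker stood out in cells chosen without it was tested by leaving it out of the tip sum and cutting the other pair at 3 UMIs. The 3 genes were themselves chosen with earlier results of these data known, so these tests are no independent check. Tests used UMIs summed per library and class, with edgeR's quasi-likelihood test, the library as a block and a Benjamini-Hochberg adjusted p under 0.05 as the threshold, and levels are in CPM with TMM scaling. Esm1 stood at 192 and 223 CPM in cells chosen on Kcne3 and Pgf (35 and 64 cells) and at 61.7 and 98.6 CPM in capillary cells. It thus rose without being part of that sum (log2 1.36 ± 0.16 SE, edgeR adjusted p = 0.000354). A log2 change of 1 is a level 2 times as high. Kcne3 stood at 152 and 138 CPM in cells chosen on Esm1 and Pgf (63 and 115 cells) and at 75.3 and 68.0 CPM in capillary cells (log2 1.01 ± 0.17 SE, edgeR adjusted p = 0.0055). Pgf did not pass, at 1.45 and 44.2 CPM in cells chosen on Esm1 and Kcne3 (71 and 134 cells) against 1.96 and 5.74 CPM (log2 2.80 ± 0.81 SE, edgeR adjusted p = 0.124), and in library 1 it was no higher than in capillary cells. Against arteriolar cells Kcne3 and Esm1 rose (log2 3.65 and 0.79, edgeR adjusted p = 4.72e-08 and 0.00172), and Pgf did not pass (log2 0.24, adjusted p = 0.818).

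Compared with capillary cells, tip cells carried more mRNA of apelin, of 15 of 42 cytoskeleton and filopodia genes and of the matrix genes Lamb1, Lama4 and Nid2, and less mRNA of Rbp7, Aqp1, the flow-responsive factors Klf2 and Klf4 and the matrix genes Eln and Fbln2. Of 9790 genes tested, 134 rose and 108 fell, so the background rate of calls was 2.47% (1.37% higher and 1.1% lower). The median log2 change over all genes was -0.01, and 1317 genes had an unadjusted p under 0.05. The same tip libraries enter this and the later comparisons, which are therefore not independent of each other. As the capillary cells were chosen to lie below the tip cut, the genes of the rule were left out of the test.

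**Figure D1:**
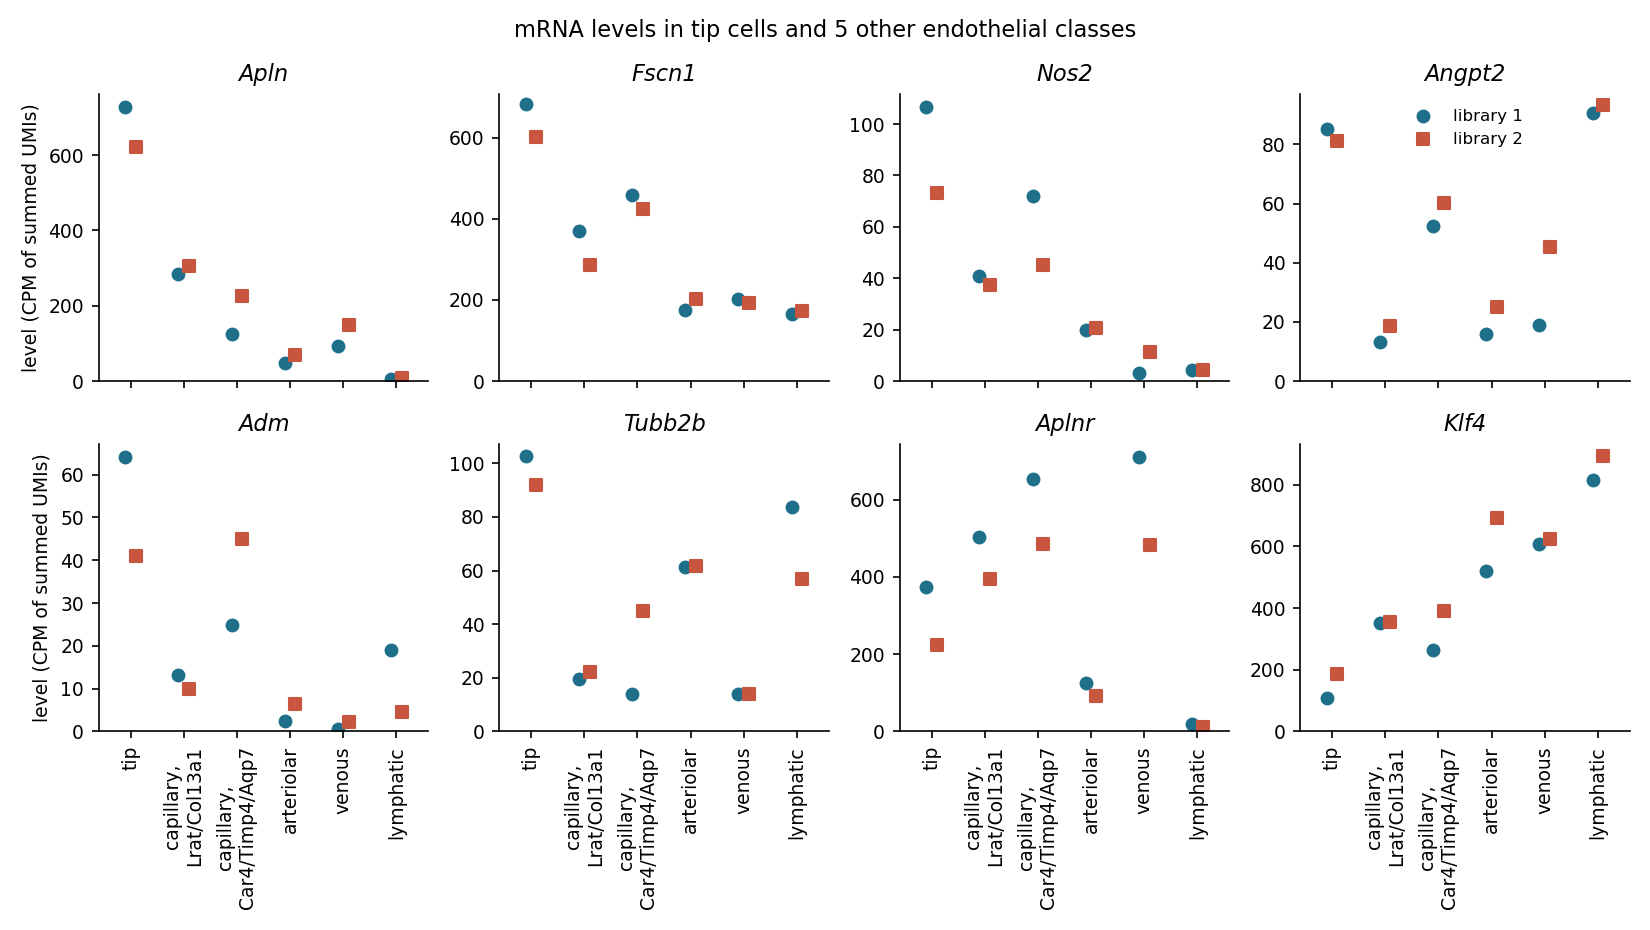
Levels of 8 genes in tip cells and 5 other endothelial classes, in CPM of UMIs summed per class, with 1 point per library (circle, library 1; square, library 2). Apln, Fscn1, Nos2 and Tubb2b were highest in tip cells in both libraries, Angpt2 was higher in lymphatic cells, and Klf4 was lowest in tip cells.

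Among secreted ligands, Apln was the clearest. Its level was 737 and 613 CPM in tip cells of libraries 1 and 2 and 230.3 and 282 CPM in capillary cells, with no overlap (log2 1.39 ± 0.17 SE, edgeR adjusted p = 0.00111). Its receptor gene Aplnr went the other way, at 379 and 222 CPM in tip cells and 545 and 405 CPM in capillary cells (log2 -0.70 ± 0.11 SE, edgeR adjusted p = 0.00343). Adm, which encodes the vascular peptide adrenomedullin, was at 64.9 and 40.5 CPM against 16.7 and 16.2 CPM (log2 1.58 ± 0.36 SE, edgeR adjusted p = 0.0341). Angpt2, the context-dependent antagonist of the TIE2 receptor, was at 86.5 and 80.1 CPM against 25.5 and 26.7 CPM (log2 1.61 ± 0.29 SE, edgeR adjusted p = 0.00817). Tek, which encodes TIE2, fell (log2 -0.85, adjusted p = 0.0279), as did Ptprb, the phosphatase that acts on it (log2 -0.79, adjusted p = 0.00349), and the lipase inhibitor Angptl4 (log2 -1.42, adjusted p = 0.0062). The list of angiopoietin and Tie genes thus had 1 member higher and 3 lower of 6 tested (median log2 -0.39).

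Pdgfb, the ligand that recruits pericytes, rose from 179 and 234 CPM in capillary cells to 305 and 319 CPM in tip cells (log2 0.59 ± 0.13 SE, edgeR adjusted p = 0.0294), and Tgfb1 rose too (log2 0.54, adjusted p = 0.0311). Fstl1, a secreted glycoprotein of the follistatin family, fell (log2 -1.01, adjusted p = 0.0047). Those were the only calls among 22 genes tested of the PDGF, TGF-beta and BMP list.

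Of 7 genes of the VEGF list 2 rose and none fell against all capillary cells (median log2 0.33), and the kinds of capillary cell are taken apart below. Nrp1, the VEGF co-receptor, was at 688 and 602 CPM in tip cells and 471 and 445 CPM in capillary cells (log2 0.49 ± 0.09 SE, edgeR adjusted p = 0.00925). Flt4, which encodes VEGFR3, was at 43.2 and 47.5 CPM and 15.8 and 22.5 CPM (log2 1.20 ± 0.27 SE, edgeR adjusted p = 0.0307). Kdr stood at 688 and 820.0 CPM in tip cells and 585 and 584 CPM in capillary cells without passing (log2 0.37 ± 0.09 SE, edgeR adjusted p = 0.0538). Flt1, the gene of the decoy receptor VEGFR1, stood at 326 and 352 CPM and 379.8 and 583 CPM and did not pass either (log2 -0.50 ± 0.13 SE, edgeR adjusted p = 0.060). With the 24 tip cells whose leading gene was Pgf left out, a choice made after the data were seen, Kdr passed (log2 0.51, edgeR adjusted p = 0.0181). No gene of the Notch list passed out of 22 tested (median log2 0.12). Dll4 was at 171 and 141 CPM in tip cells and 87.9 and 124 CPM in capillary cells (log2 0.50, adjusted p = 0.391), and the Notch target Hey1 at 19.7 and 30.8 CPM and 14.1 and 17.6 CPM (log2 0.77, adjusted p = 0.283).

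Fscn1 was at 692 and 593 CPM in tip cells and 394 and 308 CPM in capillary cells (log2 0.87 ± 0.12 SE, edgeR adjusted p = 0.00214). Against Car4, Timp4 and Aqp7 cells alone Fscn1 did not pass, as given below. Nos2, with 108 and 72.1 CPM against 50.1 and 37.9 CPM, did not pass (log2 0.98 ± 0.27 SE, edgeR adjusted p = 0.0803). The receptor gene Cxcr4, which guides migrating endothelial cells toward CXCL12, was at 45.2 and 39.6 CPM against 10.5 and 16.2 CPM (log2 1.61 ± 0.31 SE, edgeR adjusted p = 0.0133).

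Of the cytoskeleton and filopodia list, 15 of 42 genes tested rose and 1 fell, with a median log2 change of 0.30 against -0.01 over all genes. The tubulin gene Tubb2b was at 104 and 90.6 CPM in tip cells and 17.6 and 26.0 CPM in capillary cells (log2 2.10 ± 0.21 SE, edgeR adjusted p = 0.00060). A related tubulin gene, Tubb6, was at 143 and 116 CPM and 58.9 and 40.0 CPM (log2 1.38 ± 0.21 SE, edgeR adjusted p = 0.00353). Cotl1, whose product binds filamentous actin, was at 177 and 194 CPM and 95.8 and 83.6 CPM (log2 1.07 ± 0.14 SE, edgeR adjusted p = 0.00131). The cytoplasmic actins, among the most abundant mRNAs, rose by smaller steps, Actb by log2 0.44 and Actg1 by log2 0.48 (edgeR adjusted p = 0.00114 and 0.00131). Rhoc, a small GTPase of cell movement, rose as well (log2 0.82, adjusted p = 0.00142).

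A list of tip cell genes described in other tissues had 17 of 33 members higher and none lower (median log2 0.60). It holds Apln, Angpt2, Adm, Cxcr4, Pdgfb and Rhoc, described above. The list was drawn up with earlier results of these data known, so its direction is no independent evidence. Igfbp3, an insulin-like growth factor binding protein, was at 491 and 622 CPM against 308 and 372 CPM (log2 0.72 ± 0.10 SE, edgeR adjusted p = 0.00214). Cd93, a receptor that takes part in matrix adhesion of sprouting endothelium, was at 998 and 1174 CPM against 673 and 702 CPM (log2 0.66 ± 0.09 SE, edgeR adjusted p = 0.00142).

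Basement membrane genes split. Of 38 tested, 5 rose and 4 fell (median log2 0.18). The laminin chain gene Lamb1 was at 371 and 378 CPM in tip cells and 149 and 197 CPM in capillary cells (log2 1.11 ± 0.14 SE, edgeR adjusted p = 0.00142), and Lama4, another laminin chain, rose from 259 and 297 CPM to 487 and 497 CPM (log2 0.82 ± 0.11 SE, edgeR adjusted p = 0.00209). Nid2, which links laminin to collagen IV, rose (log2 0.95, adjusted p = 0.00241), and so did Col18a1, the source of endostatin (log2 0.76, adjusted p = 0.00343). On the other side, the microfibril-associated gene Fbln2 was at 23.6 and 45.7 CPM against 185 and 125 CPM (log2 -1.92 ± 0.29 SE, edgeR adjusted p = 0.00343). Eln, the elastin gene, was at 5.90 and 6.16 CPM in tip cells and at 336 CPM in capillary cells of library 1 but 47.8 CPM in those of library 2 (log2 -4.54 ± 0.85 SE, edgeR adjusted p = 0.0115). The Eln call held in 13 of 17 alternatives. Pericyte markers summed to 214 and 49.7 CPM in capillary cells and 162 and 141 CPM in tip cells. Their part in the Eln difference was not tested. Vwf, the clotting factor of larger vessels, was also lower (log2 -2.03, adjusted p = 0.0124).

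Of proteases and their inhibitors, 3 of 20 rose and 1 fell (median log2 0.14). The lysosomal protease gene Ctsl rose (log2 0.80, adjusted p = 0.00371), as did the metalloprotease gene Adam19 (log2 1.45, adjusted p = 0.00649), while Adamts1 fell (log2 -0.54, adjusted p = 0.0474). Among 10 integrin genes, the collagen-binding Itga1 rose (log2 0.80, adjusted p = 0.0224) and Itgb4, a partner in laminin binding, fell (log2 -2.31, adjusted p = 0.00533). Kcnj2, an inward-rectifier potassium channel gene, was the 1 call among 6 potassium channel genes, at 29.5 and 24.6 CPM against 3.52 and 6.32 CPM (log2 2.33 ± 0.48 SE, edgeR adjusted p = 0.0198).

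Of the list of fatty acid and capillary transport genes, 11 of 26 tested fell, none rose and 15 did not pass, with a median log2 change of -0.68. Fabp4, the fatty acid binding protein of microvessels, was at 3015 and 4071 CPM in tip cells and 12132 and 6533 CPM in capillary cells (log2 -1.33 ± 0.20 SE, edgeR adjusted p = 0.00321). The fatty acid translocase gene Cd36 was at 299 and 468 CPM and 926 and 742 CPM (log2 -1.09 ± 0.16 SE, edgeR adjusted p = 0.00271). Rbp7, an intracellular retinoid binding protein, was at 161 and 352 CPM and 1028 and 806 CPM (log2 -1.80 ± 0.24 SE, edgeR adjusted p = 0.00151), and the water channel gene Aqp1 at 307 and 555 CPM and 818 and 1057 CPM (log2 -1.11 ± 0.14 SE, edgeR adjusted p = 0.00131).

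Of 15 flow response genes tested 3 fell, 1 rose and 11 did not pass (median log2 -0.26). Klf4 was at 110.1 and 184 CPM in tip cells and 319 and 369 CPM in capillary cells (log2 -1.20 ± 0.14 SE, edgeR adjusted p = 0.00111), and Klf2 at 312 and 604 CPM and 813 and 1047 CPM (log2 -1.01 ± 0.18 SE, edgeR adjusted p = 0.00822). Txnip fell too (log2 -0.72, adjusted p = 0.00649), and Klf6 rose (log2 0.76, adjusted p = 0.0234). Immediate-early genes had 4 of 22 lower and none higher (median log2 -0.22), Fos among them at 934 and 1197 CPM against 1492 and 1893 CPM (log2 -0.67 ± 0.09 SE, edgeR adjusted p = 0.00214). Interferon response genes had 3 of 22 lower and none higher, with Irf1 at 55.0 and 150.4 CPM against 116 and 324 CPM (log2 -1.05 ± 0.17 SE, edgeR adjusted p = 0.0047). Jam2, a junction adhesion molecule, was the 1 call among 16 junction genes (log2 -0.85, adjusted p = 0.00597).

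Several groups showed next to no calls. In glycolysis 1 of 14 genes passed, Pkm, the pyruvate kinase gene (log2 0.52, adjusted p = 0.011), with a median log2 change of 0.12 over the list. Hypoxia targets had 1 call of 21, which was Adm (median 0.06). Among 36 endothelial transcription factors none passed (median -0.01), and neither did any of 18 DNA replication genes or 10 mitosis genes, which the limit on Mki67 and Top2a bears on.

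The genes with the largest changes by size that have not yet been named were, upward, S100a4, Slc12a2, Slc41a1 and Arhgef28, and downward Efhd1, Chp2, Ptn, Slc6a6, Rasl11a and Tmcc3. Slc6a6, the taurine transporter gene, was at 11.8 and 19.4 CPM in tip cells and 97.6 and 140.5 CPM in capillary cells (log2 -2.80 ± 0.33 SE, edgeR adjusted p = 0.00111). Chp2 was at 7.86 and 10.6 CPM and 64.2 and 73.0 CPM (log2 -2.82 ± 0.30 SE, edgeR adjusted p = 0.00060). S100a4, a calcium-binding protein gene, had the largest rise among them, at 9.83 and 21.1 CPM against 3.52 and 0.702 CPM (log2 3.17 ± 0.62 SE, edgeR adjusted p = 0.0154), but 5 of its 5 UMIs in library 1 came from 1 tip cell. In library 2, 14 of 24 UMIs came from 1 other cell. With cells carrying UMIs of other cell types left out its log2 change was -4.44.

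**Figure D2:**
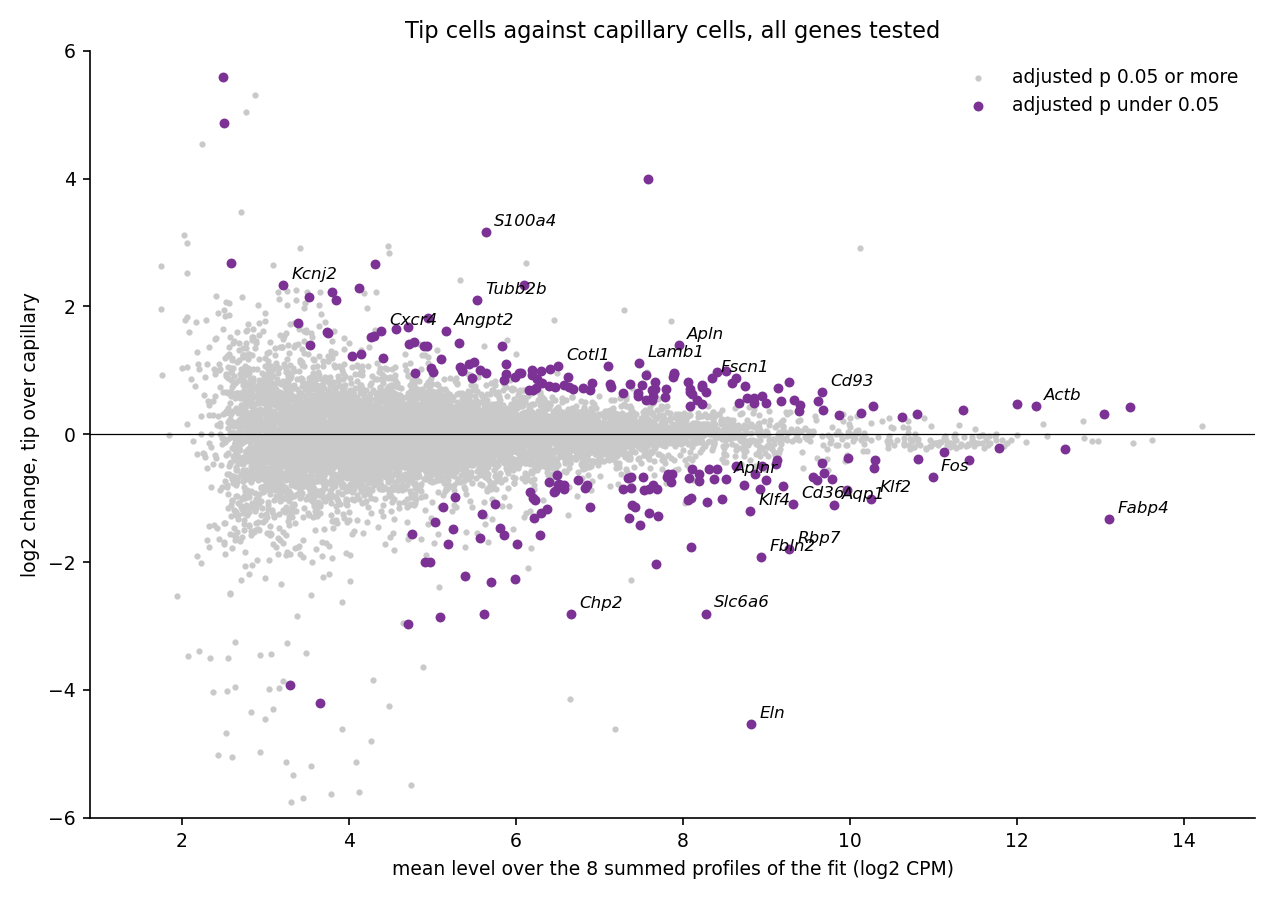
Each point is 1 of the 9790 genes tested, by its mean level (log2 CPM, x axis) and its log2 change in tip over capillary cells (y axis), with genes past the threshold in purple. Apln, Fscn1 and Lamb1 lie above 0 and Fabp4, Klf2 and Slc6a6 below it, and 6 genes beyond 6 on the y axis, 1 of them past the threshold, are not drawn.

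The count of calls depended on the cells counted. Without the 10 and 14 tip cells whose leading gene was Pgf it was 107, and with raw sums replaced by a cut of 5 per 10000 UMIs it was 148. Named genes that no longer passed without the Pgf-led cells were Adm (log2 1.5, edgeR adjusted p = 0.152), Aplnr (log2 -0.54, edgeR adjusted p = 0.0716), Slc41a1 (log2 0.54, edgeR adjusted p = 0.459), S100a4, Slc12a2, Efhd1, Flt4, Tek, Col18a1, Adamts1, Kcnj2, Tgfb1, Klf6 and Ifitm3. For some of these the change itself was about as large as before, at log2 2.36 for Kcnj2, 1.29 for Flt4 and 0.59 for Tgfb1, as for Adm. Of 61 named genes that passed, 12 passed under all alternatives that gave a test, among them Apln, Fscn1, Tubb2b, Arhgef28, Rhoc, Cotl1, Chp2, Rbp7, Cd36, Klf4 and Jam2.

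The capillary cells of the comparison were of 2 kinds, and tip cells stood in a different place against each. Against the 73 and 128 Lrat and Col13a1 cells, 153 of 9377 genes rose and 97 fell (a background rate of 2.67%, 1.63% higher and 1.03% lower), and against the 44 and 34 Car4, Timp4 and Aqp7 cells 89 rose and 130 fell (2.34%, 0.949% higher and 1.39% lower). The median log2 change over all genes was -0.02 and 0.00, and 1227 and 1258 genes had an unadjusted p under 0.05. Whether a gene's difference was unequal was read from the test of one kind of capillary cell against the other in the same fit, in which 230 genes passed (2.45%).

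Fabp4 was at 3001 and 4067 CPM in tip cells, between the 1675 and 2004 CPM of Lrat and Col13a1 cells and the 34659 and 25386 CPM of Car4, Timp4 and Aqp7 cells. It was thus higher in tip cells than in the former (log2 0.95 ± 0.16 SE, edgeR adjusted p = 0.00319) and lower than in the latter (log2 -3.07 ± 0.17 SE, edgeR adjusted p = 3.15e-08), and the kinds differed from each other (log2 -4.02 ± 0.18 SE, edgeR adjusted p = 9.02e-10). Cd36 was at 297 and 468 CPM in tip cells and 441 and 479.8 CPM in Lrat and Col13a1 cells (log2 -0.25 ± 0.15 SE, edgeR adjusted p = 0.533), but at 1971 and 1752 CPM in the other kind (log2 -2.27 ± 0.15 SE, edgeR adjusted p = 2.02e-07). Angptl4 likewise stood near the Lrat and Col13a1 level, with 82.2 and 81.7 CPM against 96.8 and 99.0 CPM (log2 -0.27 ± 0.22 SE, edgeR adjusted p = 0.697), and below the 590.5 and 536 CPM of the other kind (log2 -2.81 ± 0.21 SE, edgeR adjusted p = 7.02e-07). Rbp7 was lower in tip cells than in either kind (log2 -1.57 and -2.12, edgeR adjusted p = 0.00278 and 0.00029). Counted over the list, 8 of 26 fatty acid and capillary transport genes were lower and 2 higher against Lrat and Col13a1 cells (median log2 -0.21), and 16 were lower and 1 higher against Car4, Timp4 and Aqp7 cells (median -0.92).

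Angpt2 was at 86.1 and 80.0 CPM in tip cells, 12.9 and 18.6 CPM in Lrat and Col13a1 cells (log2 2.32 ± 0.31 SE, edgeR adjusted p = 0.00055) and 52.7 and 61.2 CPM in Car4, Timp4 and Aqp7 cells (log2 0.44 ± 0.33 SE, edgeR adjusted p = 0.631), and the kinds of capillary cell differed (log2 -1.88 ± 0.42 SE, edgeR adjusted p = 0.0243). Cd93 rose against Lrat and Col13a1 cells (log2 0.79, adjusted p = 0.00055), stood at log2 0.24 against the other kind (adjusted p = 0.334), and differed between the kinds (log2 -0.55 ± 0.11 SE, edgeR adjusted p = 0.0118). Apln rose against both, at 734 and 613 CPM in tip cells against 279.9 and 302 CPM (log2 1.21 ± 0.18 SE, edgeR adjusted p = 0.000949) and 125 and 229.6 CPM (log2 1.97 ± 0.22 SE, edgeR adjusted p = 9.57e-05). The kinds did not differ in Apln past the threshold (log2 0.76 ± 0.23 SE, edgeR adjusted p = 0.118). Nos2, which did not pass against all capillary cells, passed against Lrat and Col13a1 cells (log2 1.15 ± 0.28 SE, edgeR adjusted p = 0.0349) and not against the other kind (log2 0.51, adjusted p = 0.586). That difference between kinds was not shown by their own test (log2 -0.64 ± 0.38 SE, edgeR adjusted p = 0.537). Fscn1 also passed against Lrat and Col13a1 cells, and did so in all of 17 alternatives (log2 0.71 to 1.32). Against the other kind Fscn1 did not pass, and 10 of 15 alternatives left that unchanged (log2 0.27 to 0.65 over the 15). Of the VEGF list, 3 of 7 genes rose against Lrat and Col13a1 cells (median log2 0.36). None of 7 passed against Car4, Timp4 and Aqp7 cells (median log2 -0.04). Nrp1 did not pass against the latter cells under any of 15 alternatives, at log2 0.02 to 0.28. The Car4, Timp4 and Aqp7 sums held fewer UMIs (364592 and 271849) than the Lrat and Col13a1 sums (748378 and 1145954). The part of this in the counts of calls was not tested, and the test between the kinds is not given for the VEGF list.

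**Figure D3:**
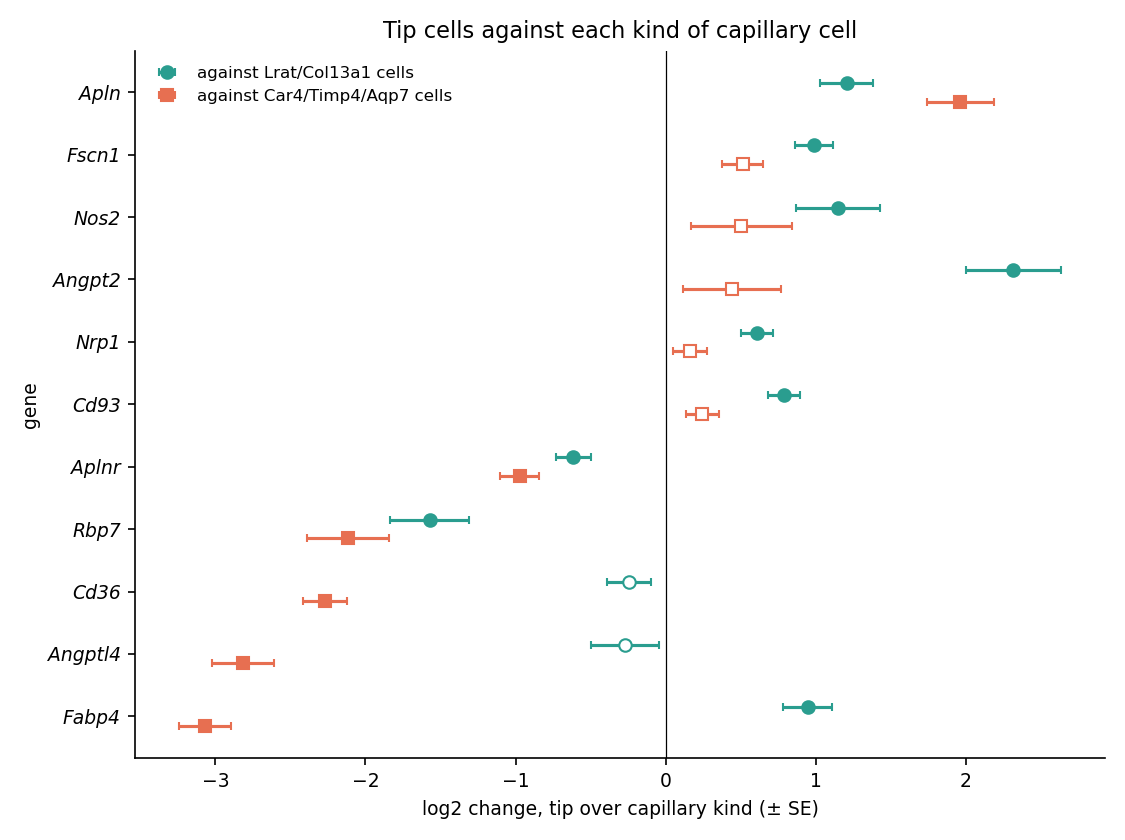
Log2 change of 11 genes in tip cells against Lrat and Col13a1 capillary cells (green circles) and against Car4, Timp4 and Aqp7 capillary cells (orange squares), with bars of 1 SE; filled marks have an adjusted p under 0.05. Fabp4 lies on opposite sides of 0 (log2 0.95 and -3.07), and Apln to the right of 0 in both.

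Against arteriolar cells the difference was far wider, with 636 genes higher and 823 lower of 9790 tested (a background rate of 14.9%, 6.5% higher and 8.41% lower). The median log2 change was -0.02, and 2656 genes had an unadjusted p under 0.05. Cxcl12 and Unc5b, which are themselves arterial, chose both classes, so the direction of the artery list is a description. Of 18 artery genes 15 were lower and none higher (median log2 -2.85). The arteriolar class was also limited to cells below the tip cut, which left out 27 and 36 cells. Those carried Apln at 206 and 349 CPM and Fscn1 at 549 and 470 CPM (plain). In the arteriolar cells kept, Apln was at 50.5 and 69.1 CPM and Fscn1 at 184 and 201 CPM. The part of this cut in the rises of tip genes was not tested.

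Gja4, the gene of the arterial gap junction protein connexin 37, was at 11.8 and 22.9 CPM in tip cells and 570.1 and 431 CPM in arteriolar cells (log2 -4.62 ± 0.22 SE, edgeR adjusted p = 7.56e-08). Nebl had no UMI in the tip cells of either library and stood at 106 and 93.4 CPM in arteriolar cells, at least 18.0-fold and 35.4-fold higher against a floor of 3 UMIs per library. Very few tip UMIs were also seen of the smooth muscle actin gene Acta2, at 0 and 1.76 CPM against 218 and 151 CPM, the matrix gene Mgp, at 3.93 and 0.880 CPM against 181 and 286 CPM, and the semaphorin gene Sema3g, at 0 and 4.40 CPM against 129 and 133 CPM. Pericyte markers, Acta2 among them, summed to 1064 and 1089 CPM in arteriolar cells and 162 and 141 CPM in tip cells, and their part in these differences was not tested. Vegfc, the ligand of VEGFR3, stood at 1.97 and 3.52 CPM in tip cells and 169 and 124 CPM in arteriolar cells (edgeR adjusted p = 3.99e-07). Eln was at 5.90 and 6.16 CPM against 541 and 579 CPM (edgeR adjusted p = 3.27e-05), Slc6a6 at 11.8 and 19.4 CPM against 932 and 661 CPM (log2 -5.51 ± 0.27 SE, edgeR adjusted p = 8.46e-08). Tmem100, a target of BMP9 and ALK1 signalling, was at 3.93 and 1.76 CPM against 174 and 132 CPM, Stmn2 at 0 and 6.16 CPM against 474 and 383 CPM and Egfl8 at 3.93 and 7.04 CPM against 200.2 and 186 CPM.

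Apln rose, at 737 and 613 CPM in tip cells and 48.1 and 69.5 CPM in arteriolar cells (log2 3.52 ± 0.18 SE, edgeR adjusted p = 8.84e-08). Odc1, the first enzyme of polyamine synthesis, was at 770.4 and 711 CPM and 45.0 and 88.9 CPM (log2 3.48 ± 0.18 SE, edgeR adjusted p = 9.32e-08), and the urea transporter gene Slc14a1 at 165 and 206 CPM and 10.2 and 26.8 CPM (log2 3.31 ± 0.20 SE, edgeR adjusted p = 2.15e-07). Further large rises were those of the sulfotransferase gene Chst2 (log2 2.70), Gmfg (2.35), the homeobox gene Meox1 (2.22), the mechanosensitive channel gene Piezo2 (2.21), Tubb6 (2.18), Itih5 (2.18) and Trp53i11 (2.12), with adjusted p between 3.50e-07 and 2.26e-05. Fscn1 rose from 175 and 203 CPM to 692 and 593 CPM (log2 1.75 ± 0.12 SE, edgeR adjusted p = 6.86e-07), Nos2 from 19.9 and 20.8 CPM to 108 and 72.1 CPM (log2 2.07 ± 0.27 SE, edgeR adjusted p = 0.000138) and Adm from 2.35 and 6.32 CPM to 64.9 and 40.5 CPM (log2 3.47 ± 0.40 SE, edgeR adjusted p = 4.37e-05). Aplnr, lower in tip than in capillary cells, was higher in tip than in arteriolar cells (log2 1.43 ± 0.11 SE, edgeR adjusted p = 1.96e-06).

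Among receptor genes, Kdr was at 688 and 820.0 CPM in tip cells and 406 and 465 CPM in arteriolar cells (log2 0.80 ± 0.09 SE, edgeR adjusted p = 4.19e-05), Nrp2 rose (log2 1.16, adjusted p = 0.000254) and Flt1 fell (log2 -0.78, adjusted p = 0.000707). Of 22 Notch genes 8 were lower and 1 higher (median log2 -0.31). The ligand gene Jag1 was at 17.7 and 14.1 CPM against 118 and 118 CPM (log2 -2.92 ± 0.24 SE, edgeR adjusted p = 2.85e-06), Jag2 at log2 -1.52 and the target Hey1 at log2 -2.21 (edgeR adjusted p = 5.77e-05 and 8.35e-06). Sox17, an arterial transcription factor, was at 138 and 205 CPM against 508 and 443 CPM (log2 -1.48 ± 0.18 SE, edgeR adjusted p = 8.46e-05). Klf2 and Klf4 were lower than in arteriolar cells as well (log2 -1.88 and -2.01, edgeR adjusted p = 9.25e-06 and 4.70e-07). Cxcr4 was at 45.2 and 39.6 CPM in tip cells and 30.9 and 26.4 CPM in arteriolar cells and did not pass (log2 0.55 ± 0.25 SE, edgeR adjusted p = 0.164). The tip gene list had 24 of 33 members higher and 3 lower (median log2 0.80), Pkm rose (log2 1.17, adjusted p = 2.82e-06), and the lipase anchor gene Gpihbp1, known from capillaries, rose as well (log2 1.29, adjusted p = 5.05e-06).

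Tip cells were not uniform. Each was assigned to the gene that gave most of its UMIs in the tip sum, which gave 28 and 50 cells led by Esm1, 11 and 27 led by Kcne3 and 10 and 14 led by Pgf, with 1 tie in library 2. This split was made after the data were seen, rests on few cells and is described without a test, with levels in plain CPM. The Pgf-led cells held less mRNA of Flt1, Plvap, Cd300lg and Eng than the other tip cells and more of Vim, Cldn5 and Fscn1.

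Flt1 was at 65.8 and 67.1 CPM in Pgf-led cells, 262 and 369 CPM in Esm1-led cells and 764 and 454 CPM in Kcne3-led cells, with no overlap between the Pgf-led cells and the others. A Flt1 UMI was present in 5 of 10 and 6 of 14 Pgf-led cells, with at most 2 and 3 UMIs in a cell, and in 84.6% and 85.9% of the rest, with up to 22 and 25. Thinned to 4000 UMIs per cell a Flt1 UMI remained in 2 of 10 and 2 of 14 Pgf-led cells (95% exact intervals 2.52% to 55.6% and 1.78% to 42.8%), against 57.9% and 61.8% of the rest. Median depth was 10756 and 10428 UMIs in Pgf-led cells and 7726 and 11157.5 in the rest. Plvap, which forms the diaphragms of fenestrae and caveolae, was at 222 and 341 CPM against 1059 to 1735 CPM in the other tip cells, Cd300lg, a capillary and venular mucin, at 74 and 106 CPM against 515 to 598 CPM, and Eng, the TGF-beta co-receptor endoglin, at 173 and 151 CPM against 423 to 544 CPM. Kdr was at 378 and 537 CPM against 778 to 896 CPM. Lrat was at 24.7 and 22.4 CPM and Col13a1 at 0 and 5.59 CPM.

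Higher in Pgf-led cells were the intermediate filament gene Vim, at 15471 and 17149 CPM against 5644 to 9202 CPM, the galectin gene Lgals1, at 1825 and 1125 CPM against 266 to 501 CPM, and the tetraspanin gene Cd9, at 1003 and 1169 CPM against 420.2 to 531 CPM. The tight junction gene Cldn5 was at 1841 and 1997 CPM against 896 to 1304 CPM, and Fscn1 at 1011 and 1113 CPM against 480.4 to 635 CPM. Slc41a1, a magnesium transporter gene, was at 164 and 157 CPM against 16.6 to 55.2 CPM. Apln was present throughout, at 1208 and 643 CPM in Pgf-led, 715 and 643 CPM in Esm1-led and 398 and 538 CPM in Kcne3-led cells, and Pecam1 at 937 and 985 CPM in Pgf-led cells.

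Lymphatic cells also carried Pgf (a UMI in 16.2% and 24.3% of cells) and little Flt1 (a UMI in 5.84% and 5.44%), yet Apln was at 4.56 and 7.62 CPM in them. The 7 lymphatic markers summed to 24.7 and 61.5 CPM in Pgf-led cells, 72.5 and 66.4 CPM in the other tip cells and 12243 and 15118 CPM in lymphatic cells. Pericyte markers summed to 625 and 280 CPM in Pgf-led cells against 10.7 and 115 CPM in the rest, and 2 of 10 and 2 of 14 cells had at least 3 such UMIs. Fibroblast markers summed to 345 and 61.5 CPM in Pgf-led cells against 16.1 and 73.5 CPM in the rest, higher in library 1 and not in library 2. Rgs5, a pericyte gene, came from 3 and 2 cells, and Ccl2, a chemokine gene at 691 and 129 CPM, from 3 and 2 cells. The part of other cells' RNA in these levels was not tested.

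**Figure D4:**
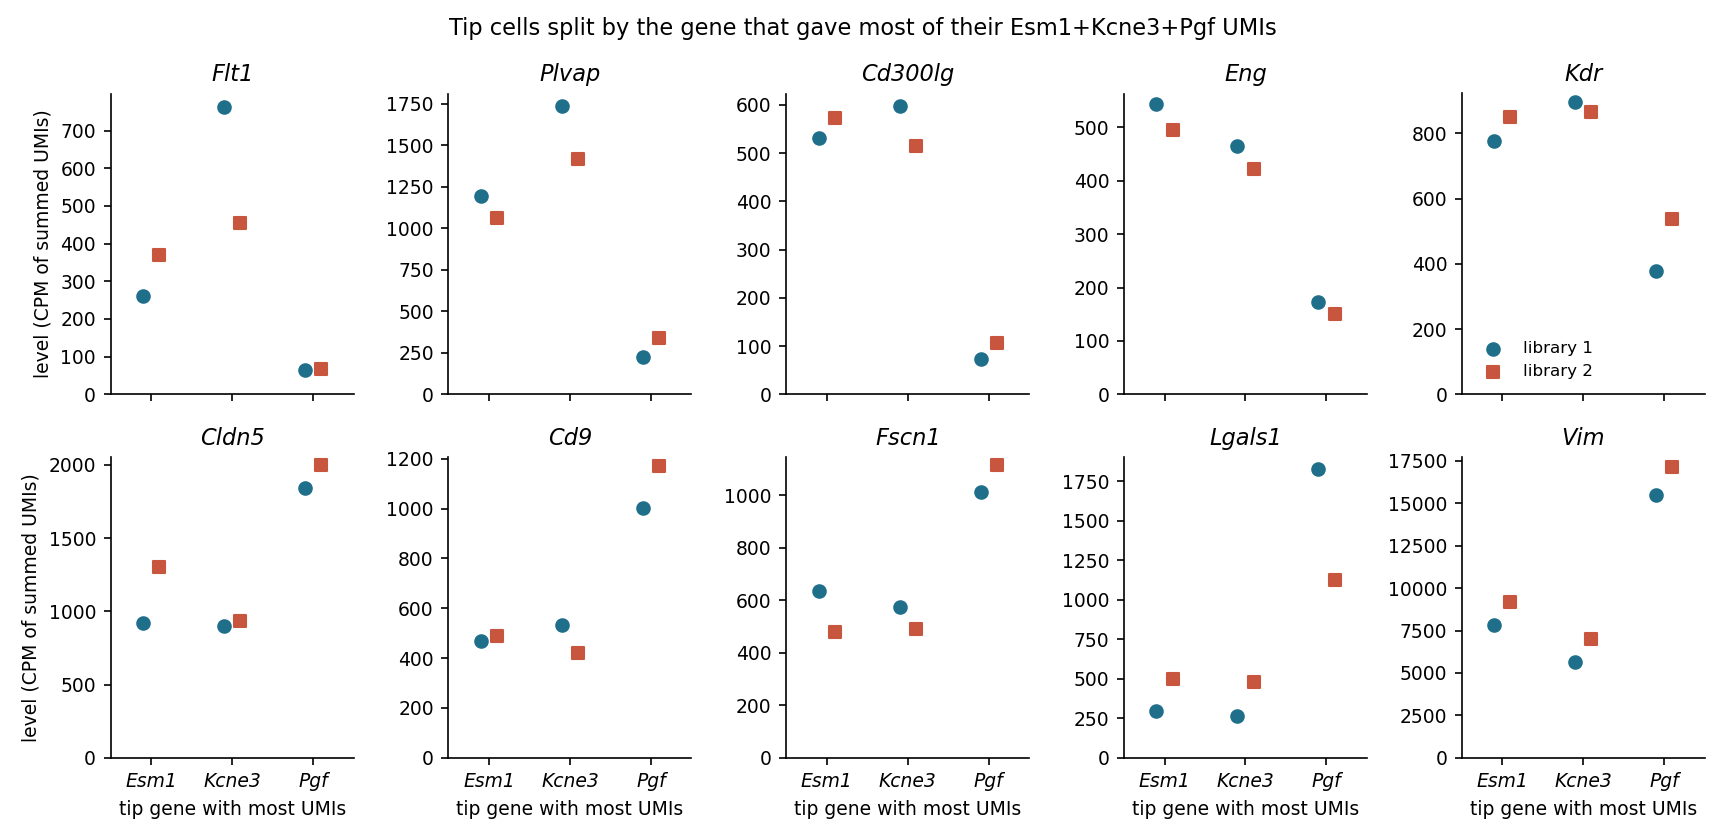
Levels of 10 genes (CPM of summed UMIs) in tip cells split by the gene with most UMIs in the tip sum (x axis), 1 point per library. Flt1, Plvap, Cd300lg, Eng and Kdr were lowest, and Cldn5, Cd9, Fscn1, Lgals1 and Vim highest, in the cells led by Pgf in both libraries.

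At the surface, tip cells carried the CXCR4 protein at several times the capillary level. Antibodies were read through oligonucleotide tags, which are shown because the counts below are counts of these letters next to a cell barcode.
CXCR4 tag: gtcgtggtgttgttc
ICAM1 tag: ataaccgacacagtg
VEGFR2 tag: ataagagcccaccat
Mean CXCR4 tag counts were 64.4 and 54.8 per tip cell and 14.9 and 13.7 per capillary cell, so the lower tip library lay above both capillary libraries. The ratio was 4.17 ± 0.216 (SD, n = 2 libraries). Medians were 22 and 29 against 6 and 5. Arteriolar cells had means of 44.6 and 40.3, while venous cells had 2.57 and 2.91 and lymphatic cells 1.55 and 1.98. Cells at the tip cut that the limit on Cxcl12 and Unc5b had set aside had 91.9 and 94.1. As a share of the counts of all antibodies, CXCR4 took 36.1% and 26.6% in tip cells 10.0% and 8.30% in capillary cells and 32% and 27.6% in arteriolar cells, so that by share tip and arteriolar cells overlapped. No test was made of any tag, and an exact test over 2 libraries alone could not go below p = 0.5. The isotype controls summed to a mean of 0.878 and 2.71 counts per tip cell.

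VEGFR2 tags averaged 4.47 and 7.30 counts in tip cells and 4.57 and 4.27 in capillary cells, so that library 1 showed no excess. ICAM1, a leukocyte adhesion receptor, averaged 105 and 135 counts in tip cells and 123 and 140 in capillary cells, and its share of antibody counts was 58.8% and 65.7% against 82.5% and 85.0%. Icam1 mRNA stood at 232 and 586 CPM in tip cells and 271 and 1013 CPM in capillary cells without passing (log2 -0.56, edgeR adjusted p = 0.111). CD45 averaged 2.61 and 3.11 counts per tip cell and VCAM1 0.980 and 2.69. The isotype controls summed to 0.878 and 2.71 in the same cells, so VCAM1 lay near that background in both libraries and CD45 in library 2.

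The Pgf-led tip cells again differed from the other tip cells. Their CXCR4 tags averaged 104 and 75.6 counts against 54.4 and 51.3 in the other tip cells, with medians of 86 and 66 against 20 and 23, and ICAM1 averaged 58.0 and 80.3 against 117 and 145. Cxcr4 mRNA, with 3 and 10 UMIs in the Pgf-led cells, did not show the same order, at 24.7 and 56.0 CPM in Pgf-led cells, 75.4 and 29.2 CPM in Esm1-led cells and 8.30 and 34.1 CPM in Kcne3-led cells. The tag levels were not particular to Pgf-led cells. Cells at the tip cut set aside for Cxcl12 and Unc5b had CXCR4 means of 91.9 and 94.1 and medians of 69 and 65. ICAM1 averaged 56.5 and 114 in those cells and 73.0 and 94.9 in arteriolar cells.

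**Figure D5:**
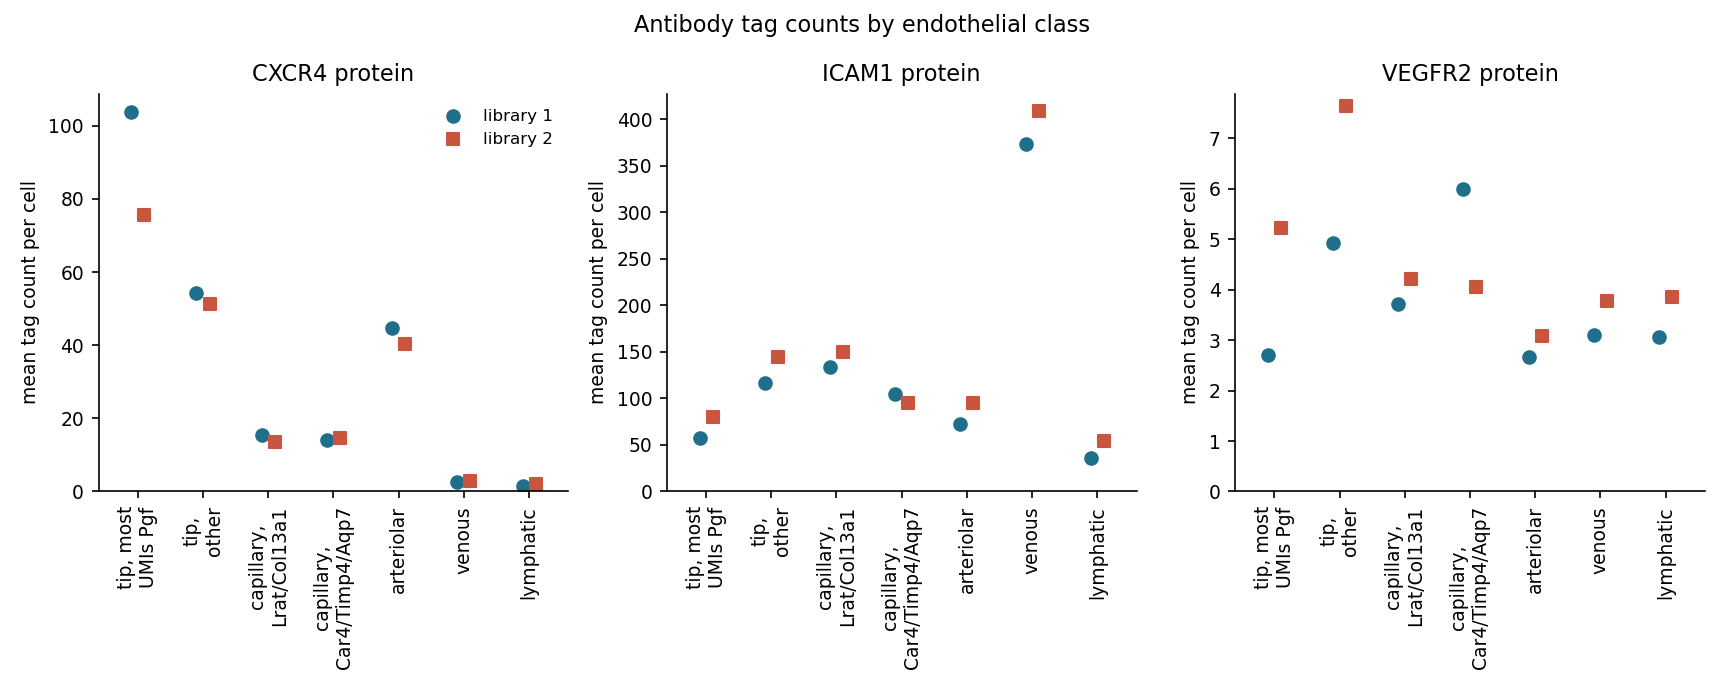
Mean tag counts per cell of 3 surface proteins by endothelial class, 1 point per library, with tip cells split into those led by Pgf and the others. Among these classes CXCR4 was highest in Pgf-led tip cells (104 and 75.6), ICAM1 in venous cells, and VEGFR2 spanned 2.67 to 7.64 counts over all classes shown. Cells at the tip cut set aside for Cxcl12 and Unc5b (CXCR4 91.9 and 94.1) are not drawn.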

How the data were processed

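The mRNA files hold UMI counts per gene and cell barcode, deposited as raw counts by the authors; per the submitters' processing notes, Cell Ranger, Seurat 3.0.2 and mm10 were used, and per the file headers the software version was 3.0.2. The tag files hold counts per antibody and barcode, deposited by the authors; the sources used here do not say whether they count UMIs or reads. The members and gene lists were chosen with earlier results of these data known.

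Barcodes with at least 500 genes and at most 10% mitochondrial UMIs were kept (1500 and 2250). For each class the UMIs of a library were added up, and edgeR 4.0.16 tested these sums (R 4.3.3; quasi-likelihood test, TMM scaling, filterByExpr, Benjamini-Hochberg adjustment). Each class comes from both libraries, which pairs the sums, so the library was a block. The fit with tip, capillary, arteriolar and venous classes had 3 residual degrees of freedom, and the fit with the capillary kinds apart had 4. Standard errors were derived from the F statistic and the log2 change. The p-values rest on 2 libraries. CPM in tests are TMM-scaled within each fit, those in the plot of levels by class are TMM-scaled over all classes, and shares, marker sums, near-cut values and values by leading gene are plain. The 19 genes of the rule were not tested.

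Genes named were the 10 largest rises and 10 largest falls at a mean log2 CPM of at least 5 with the same direction in both libraries (predicted, mitochondrial and ribosomal genes left out), up to 4 members of each list by smallest adjusted p, Apln, Nos2, Fscn1 and the genes of the tagged proteins; Hbb-bt and the genes compared by leading gene were chosen after their values were seen. Some genes that the rule names are not reported here. Scrublet (scanpy 1.11.5) marked 2 and 11 cells as doublets, none a tip cell, and they were kept. Sequences came from RefSeq tables. On simulated data for the capillary comparison, with 200 changed among 9790 genes, the test found 57% of 2-fold and 87% of 4-fold changes, and 6.49% of calls were false. Alternatives included DESeq2 1.42.0.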

Additional observations from a re-analysis of the deposited data

How the results depend on the processing

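For tip against capillary cells, 242 genes passed. DESeq2 gave 121, no low-count filter 517, a fit of tip and capillary classes only 557, a cut of 5 per 10000 UMIs 148, cells with 1000 genes and at most 5% mitochondrial UMIs 142 (43.7% higher, against 55.4%), and tip cells without those led by Pgf, a setting chosen after seeing the data, 107, of which 104 were among the 242. Against Lrat and Col13a1 cells, where 250 passed, DESeq2 gave 155, no filter 456 and the Pgf-led cells left out 145, and the stricter cells moved the share higher from 61.2% to 50.7%. Against Car4, Timp4 and Aqp7 cells, where 219 passed, no filter gave 434, with 50.7% higher against 40.6%. Against arteriolar cells, where 1459 passed, DESeq2 gave 681 and the stricter cells 656. Without the replicate block, which drops the pairing of classes within a library, the counts were 45, 95, 99 and 954 in that order. The tip share was 6.14% at a cut of 3, 2.03% at a cut of 8, 4.92% with the stricter cells and 3.27% to 4.09% by library. CXCR4 tag ratios were 3.41 by share and 4.73 by median, against 4.17 by mean, the ICAM1 ratio was 0.743 by share and the VCAM1 ratio 1.5 by median. Signs reversed against capillary cells for Hey1 (-0.19 with the tip cut on Kcne3 and Pgf) and S100a4 (-4.44 with cells carrying UMIs of other cell types left out), and against Car4, Timp4 and Aqp7 cells for Angpt2 (-0.10 with the cut on Esm1 and Kcne3) and Ptn (-4.86 at a cut of 8, -0.68 per 10000 UMIs, and -0.49 to 5.92 leaving out either library). Of 61 named genes that passed against capillary cells, 862 of 1035 alternative values kept the call, 172 lost it and 1 reversed; against arteriolar cells 621 of 623 kept it. The causes were not tested. Leaving out a library gave values with no test. Against Car4, Timp4 and Aqp7 cells the stricter cells and a capillary cut of 5 were not run, with 11 and 19 cells in a library. Tip cells numbered 49 and 92, so genes with few UMIs per library are the least certain.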

Other observations

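Cells at the tip cut were also found among dividing cells. With at least 3 UMIs of Mki67 and Top2a, 17 of the 142 dividing cells in library 1 and 34 of the 228 in library 2 had 5 or more UMIs of Esm1, Kcne3 and Pgf. Their Apln level was 771 and 314 CPM (plain), against 221 and 208 CPM in dividing cells below the cut, and Fscn1 was at 499.8 and 447 CPM against 273 and 253 CPM. CXCR4 took 23.9% and 21.6% of their antibody counts, against 5.13% and 5.58% below the cut. These cells were deeper, with medians of 17163 and 15573.5 UMIs against 13216 and 13429, and the part of depth in the difference was not tested.

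Among lymphatic cells 7 and 26 met the tip cut, of which 5 and 19 had most of those UMIs from Pgf. Apln was at 7.79 and 21.8 CPM in them, far below the 759 and 602 CPM of tip cells. The cells set aside for Cxcl12 and Unc5b, 27 and 36 in all once other limits applied, carried Apln at 206 and 349 CPM, and CXCR4 took 57.9% and 40.8% of their antibody counts.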
